A study of Arabidopsis thaliana with 18 samples.

Results

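Both tocopherol-lacking mutants of Arabidopsis thaliana, vte1-1 and vte2-1, were set together against their wild type, to find transcripts whose level changed in common when tocopherols were missing. The 12 mutant arrays were those titled vte1-1 or vte2-1, with 6 arrays of each genotype, and the 6 wild-type arrays were those titled Col-0, so that all 18 arrays of the study were used. The mutants (called vte1 and vte2 here) are in the Columbia-0 background, the same as the wild type (WT). Whole seedlings were harvested 1 day (24 h) or 3 days after transfer to 22 °C, with a 12 h photoperiod, on medium with Murashige and Skoog salts. All genotypes alike had spent 5 days at 6 °C before that. Each of the 6 groups of genotype and day had 3 biological replicates according to the titles, and each mutant genotype is represented by a single allele. RNA from about 100 mg of seedlings was hybridised to Affymetrix ATH1 arrays, which carry short oligonucleotide probes grouped into probe sets. The stated aim was a comparison of both mutants with WT and between themselves.

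Tocopherols, known as vitamin E, are lipid-soluble antioxidants made in plastids, and in seeds and germinating seedlings they protect membrane and storage lipids from peroxidation. VTE2 is homogentisate phytyltransferase, the enzyme of the committed step that joins the ring and the tail, and VTE1 is tocopherol cyclase, which acts on a later intermediate, a redox-active quinol. A vte2 plant therefore lacks tocopherols and that intermediate, while a vte1 plant lacks tocopherols but accumulates the intermediate. VTE1 and VTE2 were not analysed here, since no probe set carried either name in the probe table used, and the genotype labels could not be checked by the level of the mutated genes.

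Signals are the deposited linear intensities, and differences are mutant minus WT on the log2(signal + 22) scale, which understates the change of dim genes. Median signals per array were 121.8 to 161.2 in the mutants and 128.9 to 148.9 in WT at day 1, and 168.8 to 181 in the mutants and 164.1 to 169.7 in WT at day 3. Over probe sets, arrays of the same genotype and day had correlations of 0.924 to 0.972. The log2 ratio of 3' to 5' GAPDH signal, a measure of RNA integrity, overlapped between the classes, at -0.23 to 1.13 in the mutants and -0.62 to 0.83 in WT at day 1. It was lowest in replicate 3 in all 6 groups. The vte1 arrays of day 1 stood apart. The summed signal of 5 measured root marker genes was 109.7, 183.7 and 1510.7 there, against 3703.6 to 4546.2 in WT of that day, while vte2 replicate 3 had 18196.3, and all 5 had a pooled difference below 0. At day 3 that sum was 2975.3 to 5385.2 (median 4127.5) in the mutants and 2714.5 to 6141.2 (median 2892.1) in WT. The 3 measured cotyledon and leaf markers, among them Rubisco activase (RCA), also had pooled differences below 0. Their summed signal at day 1 was 3279.8, 3201.8 and 10106.1 in vte1, 16209.5, 13876.8 and 20344.1 in vte2, and 11377 to 13641.5 in WT. The vte1 arrays thus lay below WT and the vte2 arrays above it at that age. The sum ran from 75461.3 to 117238.1 in the mutants and from 114100.2 to 169217.5 in WT at day 3. The only measured dry-seed embryo marker, LEA4-5, had 10964.8, 12017.4 and 1605.3 in vte1 at day 1. It had 792.6, 801.9 and 454.5 in vte2 and 2025.7, 1900.9 and 103.9 in WT, so only vte1 replicates 1 and 2 lay above all WT arrays. The part of these markers in the results below was not tested, and in whole seedlings fewer cells of a type and less RNA per cell cannot be told apart.

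AT5G39410, a gene on chromosome 5 of the saccharopine dehydrogenase-like family, had a higher signal on every mutant array than on any WT array of the same day. At day 1 its signal was 1114.8, 1140.1 and 854.7 in vte1 and 721.4, 997.6 and 723.5 in vte2, against 79.7, 95.6 and 120.1 in WT. Every mutant array of day 1 was several times above the highest WT array. At day 3 the signal was 132.3, 157.5 and 157.9 in vte1 and 434.9, 489.7 and 165.2 in vte2, against 128.6, 11.9 and 7.3 in WT. The groups still did not overlap at day 3, although WT replicate 1 lay just under the lowest vte1 array. Averaged over the mutant arrays of a day, the signal was 925 ± 187 in the mutants and 98.5 ± 20.4 in WT at day 1, and 256 ± 161 in the mutants and 49.3 ± 68.7 in WT at day 3 (SD, n = 6 and 3).

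The pooled difference of AT5G39410 was 2.59 ± 0.31 (SE), a 6.01-fold difference on that scale, with an adjusted p of 0.000888 in limma's fit with class and day. The difference from the shared WT arrays was 2.41 ± 0.36 for vte1 and 2.76 ± 0.36 for vte2, and the mutants' own difference was 0.35 ± 0.36 (adjusted p = 0.811). By day, limma gave a pooled difference of 2.96 ± 0.44 at day 1 (adjusted p = 0.0287) and of 2.21 ± 0.44 at day 3 (adjusted p = 0.066), and the change between the days was -0.76 ± 0.62 (adjusted p = 1). A two-sided exact permutation test that exchanged mutant and WT arrays within each day gave p = 0.000142, the smallest that the 7056 arrangements can give. The gene was singled out by this same difference among all probe sets, so that this p, which is not adjusted, adds nothing independent to the fit. The call was kept when any single array was left out. It was lost when replicate 2 of all groups was left out (2.29, adjusted p = 0.786) or replicate 3 of all groups (2.59, adjusted p = 0.146). The 5 measured genes among the 5 on either side of AT5G39410 in the annotation had pooled differences between -0.25 (AT5G39370) and 0.17 (AT5G39390). Their adjusted p in the same limma fit was 0.96 or more. All 5 were dim, with mean signals over all arrays from 10.78 (cdc2cAt) to 46.43 (AT5G39380), against 418.5 for AT5G39410. The scale understates the change of dim genes, so these small differences do not show whether the neighbours changed.

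**Figure D1:**
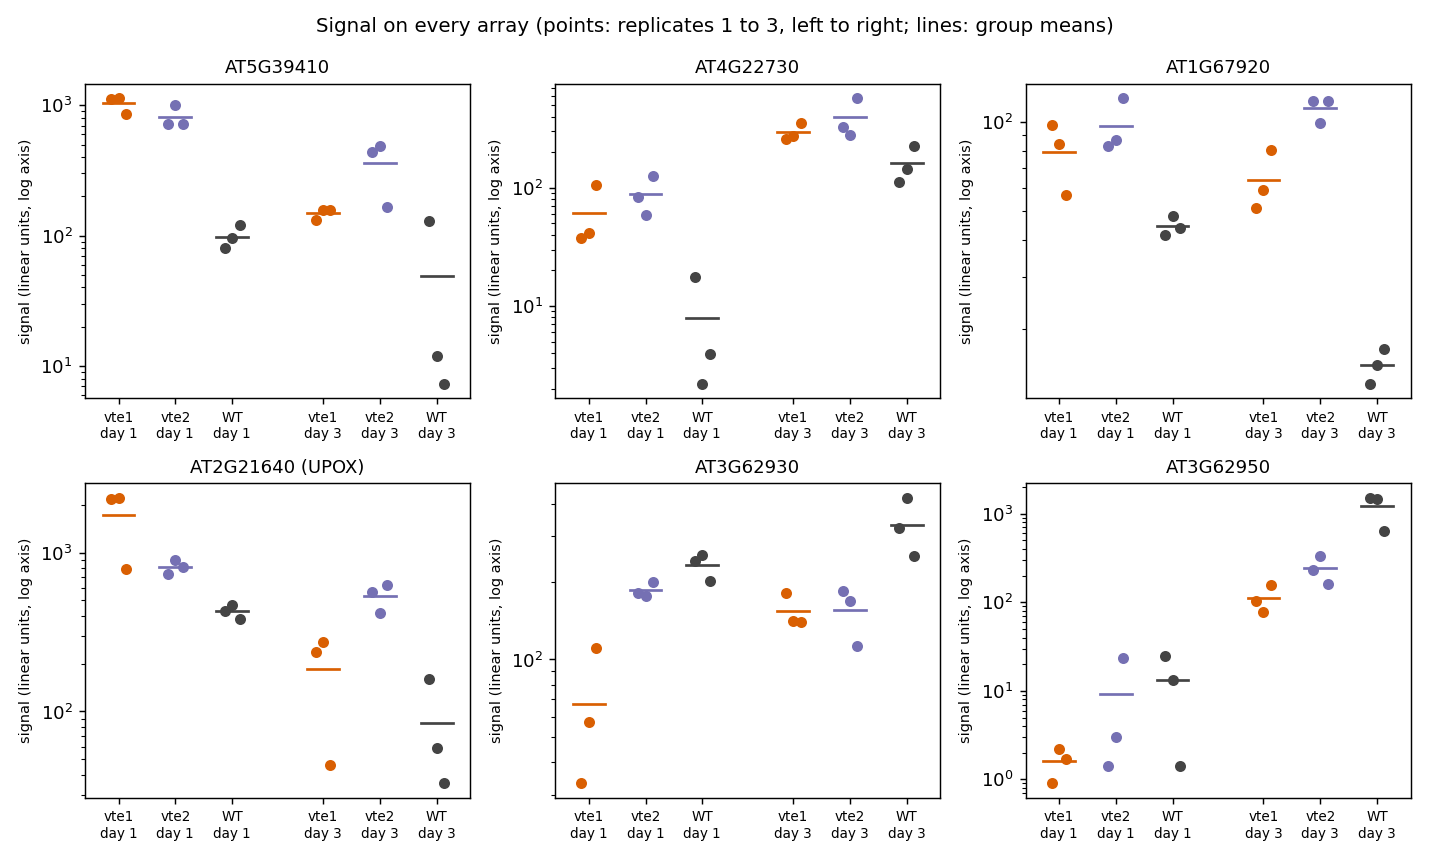
Signal of 6 genes on each of the 18 arrays (vertical log axes, linear signal units; points are replicates, lines are group means; vte1 and vte2 stand left of WT within each day). For AT5G39410, AT4G22730 and AT1G67920 every mutant array lies above every WT array of its day, and for AT3G62930 every mutant array lies below.

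AT5G39410 was the only probe set called among 22746 tested (0.0044%) when the arrays were fitted by class, mutant or WT, and day; 1 was higher and 0 were lower. Without adjustment, 1358 (5.97%) had p under 0.05. The median pooled difference over all probe sets was 0.002, and 50.4% lay above 0. In that fit any difference between vte1 and vte2, and any change between the days, counts as spread. In a second fit, with a mean for each genotype and day, the spread is that among replicates of a group alone, and 69 probe sets (0.303%) were called, 54 higher (0.237%) and 15 lower (0.0659%), with 1887 (8.3%) at an unadjusted p under 0.05. Of these 69, 30 carried the name of a single gene. The second fit asks whether the mutant groups differ from WT on average, so a gene that moved in 1 mutant can pass. Among the 69, 46 had the same sign in all 4 mutant groups (38 higher, 0.167% of those tested, and 8 lower, 0.0352%). Among all probe sets 19.1% had such a sign, but the 69 were chosen for a large average over these same groups, which favours equal signs, and nothing is read from the comparison. A sign can also rest on a value near 0, as for AT2G32190 in vte1. The other 23 changed sign between mutants or days. The difference was larger in size in vte2 than in vte1 for 59 of the 69, and larger at day 3 than at day 1 for 57. The choice by average lets a gene pass that moved mainly in vte2 or at day 3. Shares over all probe sets are not given, and nothing general is read from these counts either. The count was between 34 (without WT replicate 1 of day 1, and likewise without replicate 2) and 250 (without vte1 replicate 3 of day 1) when 1 array was left out. It was 39 without WT replicate 2 and 127 without WT replicate 3 of day 3, and 42 without vte1 replicate 2 of day 3. With replicate 1, 2 or 3 of all groups left out, 2, 0 and 1065 probe sets were called. For single genes the second-fit call therefore depends on the setting. Among the 24 named genes called with the same sign in all 4 mutant groups, it was kept in 8 (AT3G07090 and SBT3.5) to 27 (AT5G39410) of 28 alternative settings. AT1G26390, AT3G17110 and AT3G28540 had 27 such settings. Named genes of the second fit that changed sign were not followed over the settings. All adjusted p below are from limma, those named "within-group" from the second fit, and every gene named from the second fit was chosen after its values were seen.

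**Figure D2:**
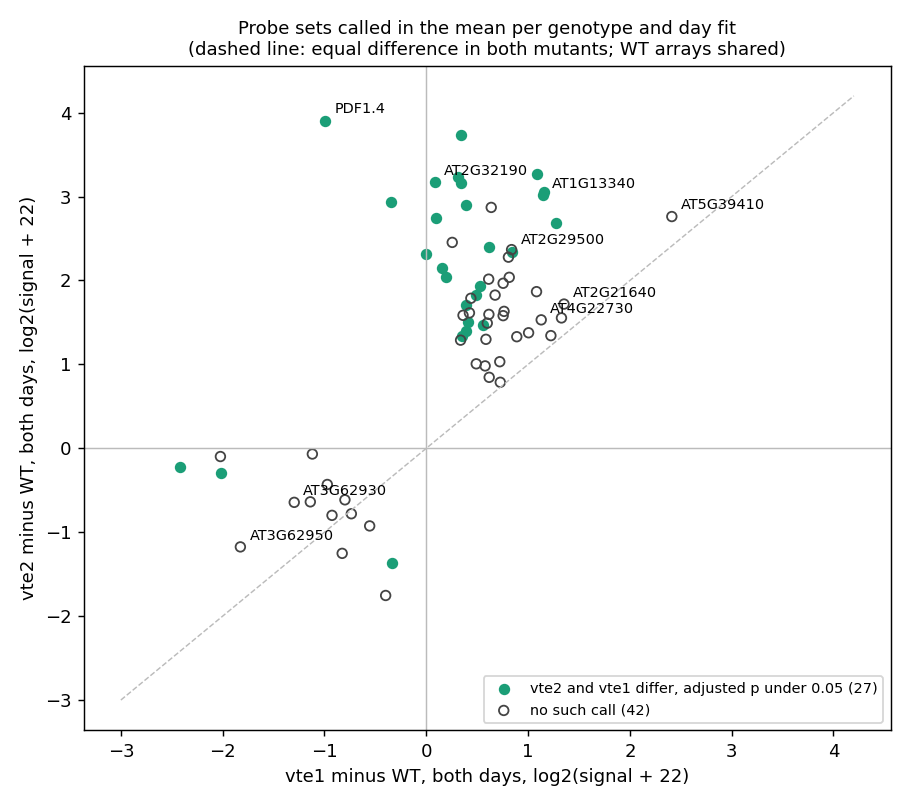
Difference from WT over both days in vte1 (horizontal) and vte2 (vertical), log2(signal + 22), for the 69 probe sets called with a mean per genotype and day; filled points mark the 27 whose mutants also differed from each other. The difference is larger in vte2 for 59 of the 69, which were chosen by their average over both mutants. AT5G39410 lies close to the dashed line of equal difference.

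In the second fit 1 of 6 measured genes of the electrophile detoxification list, UPOX, and 1 of 2 of the heat shock list, AT2G29500, were called higher. Among all probe sets 0.237% were. Both genes were put on these lists with earlier results of these data known, so their calls are not independent support for either list. UPOX (AT2G21640), a mitochondrial protein gene used as a marker of oxidative stress, had 2191.1, 2220.8 and 793.2 in vte1, with 731.6, 903.5 and 809.7 in vte2 at day 1, against 431.4, 470 and 381 in WT. At day 3 it had 236.1, 274.3 and 46.3 in vte1 and 568.5, 414.6 and 626.9 in vte2, against 160.9, 59 and 35.2 in WT. All mutant arrays of day 1 were above WT, and at day 3 vte1 replicate 3 fell among the WT values. The pooled difference of UPOX was 1.54 ± 0.38 (adjusted p = 0.385, within-group adjusted p = 0.0224, called in 20 of 28 alternative settings), with 1.35 in vte1 and 1.72 in vte2. The small heat shock protein gene AT2G29500 averaged 718 ± 250 in vte1, 1939 ± 121 in vte2 and 243 ± 82.4 in WT at day 3 (SD, n = 3 each). Every mutant array of that day, from 464.2 up, exceeded the highest WT value of 337.7. At day 1 it averaged 56.4 ± 33.7 in vte1, 241 ± 216 in vte2 and 43.0 ± 18.8 in WT, and vte1 overlapped WT. Its pooled difference was 1.59 ± 0.40 (adjusted p = 0.4, within-group adjusted p = 0.00682), larger in vte2 than in vte1 (2.34 and 0.84, adjusted p of the difference 0.0236).

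The chaperone gene Hsp70-2 and its co-chaperone-type gene Fes1A were also in the higher group of the second fit. Hsp70-2 ranged from 381.2 to 1360 in the mutants and from 229.1 to 346.1 in WT at day 3, without overlap, with a pooled difference of 1.20 ± 0.31 (within-group adjusted p = 0.0379). That call held in 14 of 28 alternative settings, and the adjusted p was 0.865 without replicate 1 of all groups. At day 1 the vte1 arrays had 542.6, 327 and 390.3, against 294.3, 427.6 and 427.5 in WT, so that vte1 and WT overlapped there. Fes1A had a pooled difference of 1.05 ± 0.27 (within-group adjusted p = 0.0265, called in 18 of 28 settings), with 0.60 in vte1 and 1.49 in vte2. All of these genes missed the threshold in the fit with class and day (adjusted p of 0.4 to 0.431 for AT2G29500, Hsp70-2 and Fes1A).

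A pair of genes separated mutants from WT on every array and had the next highest ranks after AT5G39410 among named genes. AT4G22730, of the leucine-rich repeat receptor kinase family, had 37.5, 41.7 and 106 in vte1, with 82.9, 58.5 and 126.3 in vte2 at day 1, against 17.7, 2.2 and 3.9 in WT. At day 3 it had 257.8, 275.7 and 351.2 in vte1 and 330.1, 281.9 and 576.9 in vte2, against 111.2, 145.8 and 225.9 in WT. The lowest mutant array was above the highest WT array at both ages, although the WT signal itself was much higher at day 3. The pooled difference was 1.33 ± 0.24 (adjusted p = 0.148, within-group adjusted p = 0.00936), and the mutants' own difference was 0.40 ± 0.27 (adjusted p = 0.659).

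AT1G67920, a protein-coding gene with no role given in the annotation used, had 97.4, 84.1 and 56.6 in vte1, with 82.8, 86.8 and 120.3 in vte2 at day 1, against 41.5, 48.3 and 43.8 in WT. At day 3 it had 51.3, 59 and 80.6 in vte1 and 117.3, 98.7 and 117.1 in vte2, against 13.1, 15.2 and 17.2 in WT. WT was lower at day 3 than at day 1. The mean of vte1 was 79.4 ± 20.8 at day 1 and 63.6 ± 15.2 at day 3, and that of vte2 was 96.6 ± 20.6 and 111 ± 10.7 (SD, n = 3). The mutants averaged together, 88.0 ± 20.8 at day 1 and 87.3 ± 28.5 at day 3 (SD, n = 6), join these opposite shifts. The pooled difference was 1.11 ± 0.21 (adjusted p = 0.148, within-group adjusted p = 0.00682). For both genes the exact permutation p was 0.000142, again the smallest possible. They were chosen for their rank, so that this p adds nothing independent to the fit.

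Among all probe sets, the 6 mutant arrays lay beyond the 3 WT arrays in 354 at day 1 (1.56%) and in 1024 at day 3 (4.5%). At both days and in the same direction this held for 16 (0.0703%), 11 higher (0.0484%) and 5 lower (0.022%). Of these 16, 9 carried the name of a single gene. The higher ones were AT5G39410, AT4G22730, AT1G67920, AT5G42830, AT2G46140 and CW14. AT5G42830, of an acyltransferase family, averaged 75.8 ± 10.1 in the mutants and 48.1 ± 13.8 in WT at day 1, and 170 ± 74.3 in the mutants and 58.5 ± 37.4 in WT at day 3. AT2G46140, a late embryogenesis abundant (LEA) protein gene, averaged 3149 ± 390 in the mutants and 2471 ± 111 in WT at day 1, and 860 ± 248 in the mutants and 546 ± 83.0 in WT at day 3. CW14 had the smallest shift of them, 0.37 ± 0.12, with 386.2 to 525 in the mutants and 309.5 to 385.1 in WT at day 1. AT3G62930, AT1G52990 and the pseudogene AT2G07730 were lower. AT2G07730 had signals of at most 24 on any array, near the floor of measurement, and AT1G52990 averaged 70.5 ± 25.0 in the mutants and 123 ± 18.7 in WT at day 1 (pooled difference -0.67 ± 0.19, adjusted p = 0.622).

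Other named genes of the second fit were higher mainly in vte2. AT1G13340, of a family of regulators of Vps4 activity in membrane sorting, had 119.2, 88.7 and 27.7 in vte1, with 383.5, 361 and 579.7 in vte2 at day 3, against 5.8, 12.3 and 12.3 in WT. All 6 mutant arrays of day 3 were above WT, and the vte2 arrays were above the vte1 arrays. Its pooled difference was 2.08 ± 0.49 (adjusted p = 0.355, within-group adjusted p = 0.00611), with 1.15 in vte1 and 3.02 in vte2 (adjusted p of the difference 0.0193). AT2G32190, of a family of small cysteine-rich membrane proteins, shows how an average can pass on 1 mutant alone. Its difference was 3.18 in vte2 and 0.08 in vte1, and at day 3 it had 250.3, 175.5 and 123.4 in vte1 and 1910.4, 2270 and 2592.2 in vte2, against 132.6, 250.8 and 109.4 in WT. The protein kinase family gene AT5G11410 had differences of 0.62 in vte1 and 2.40 in vte2 (adjusted p of the difference 0.00292).

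AT1G65500 and the berberine bridge enzyme-like oxidase gene AT1G26390 had their highest signals in vte2 at day 3. AT1G65500 reached 955, 1655.4 and 1185.3 in vte2 at that age, while vte1 had 13.1, 5 and 12 and WT had 3.7, 4.2 and 6.5. AT1G26390 reached 455, 360 and 689.9 in vte2, while vte1 had 76.8, 4.6 and 45.1 and WT had 15.3, 7.4 and 4.1. The vte1 arrays overlapped WT for AT1G65500 and, through replicate 2, for AT1G26390. Their pooled differences were 1.75 and 1.54, with within-group adjusted p of 0.000586 and 0.00682. The beta-glucosidase gene BGLU25 had 607, 821.5 and 712.5 in vte1, with 3485.1, 3536 and 5182.9 in vte2 at day 3, against 509.6, 489.4 and 431.6 in WT.

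In contrast, AT3G28540, of the AAA-type ATPase family, and AT3G07090 had nearly equal differences in both mutants. AT3G28540 differed by 1.22 in vte1 and 1.34 in vte2 (within-group adjusted p = 0.0365, called in 13 of 27 settings), and at day 3 it had 37.8 to 124.2 in the mutants and 2.3 to 9.1 in WT. AT3G07090 differed by 0.73 in vte1 and 0.79 in vte2 (within-group adjusted p = 0.0499) and averaged 3438 ± 325 in the mutants and 2618 ± 439 in WT at day 1, and 2317 ± 494 in the mutants and 1104 ± 513 in WT at day 3. Its call held in 8 of 28 settings and was lost in the others, with an adjusted p of 1 without replicate 2 of all groups. The remaining higher genes with the same sign in all 4 mutant groups had larger differences in vte2 than in vte1. AT3G23570 (0.94) had 0.59 in vte1 and 1.30 in vte2, and AT3G17110, a transcribed pseudogene (1.17), had 0.76 and 1.58. For AT3G22260 (1.19) these were 1.01 and 1.38, and for the subtilase gene SBT3.5 (1.02) 0.42 and 1.61. The pectin methylesterase gene ATPMEPCRB (0.84) had 0.35 in vte1 and 1.33 in vte2 (adjusted p of the difference 0.0426). SBT3.5 had a within-group adjusted p of 0.0478 and was called in 8 of 28 settings, AT3G17110 in 17 of 27 and ATPMEPCRB in 19 of 28. A further 6 named genes passed the second fit but changed sign between mutant groups. Of these PDF1.4, a plant defensin gene, had the largest contrast, with -0.99 in vte1 and 3.91 in vte2 (adjusted p of the difference 1.07e-05). The others were AT1G56060, PRN, AT4G39320, YLS5 and AT2G34620.

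**Figure D3:**
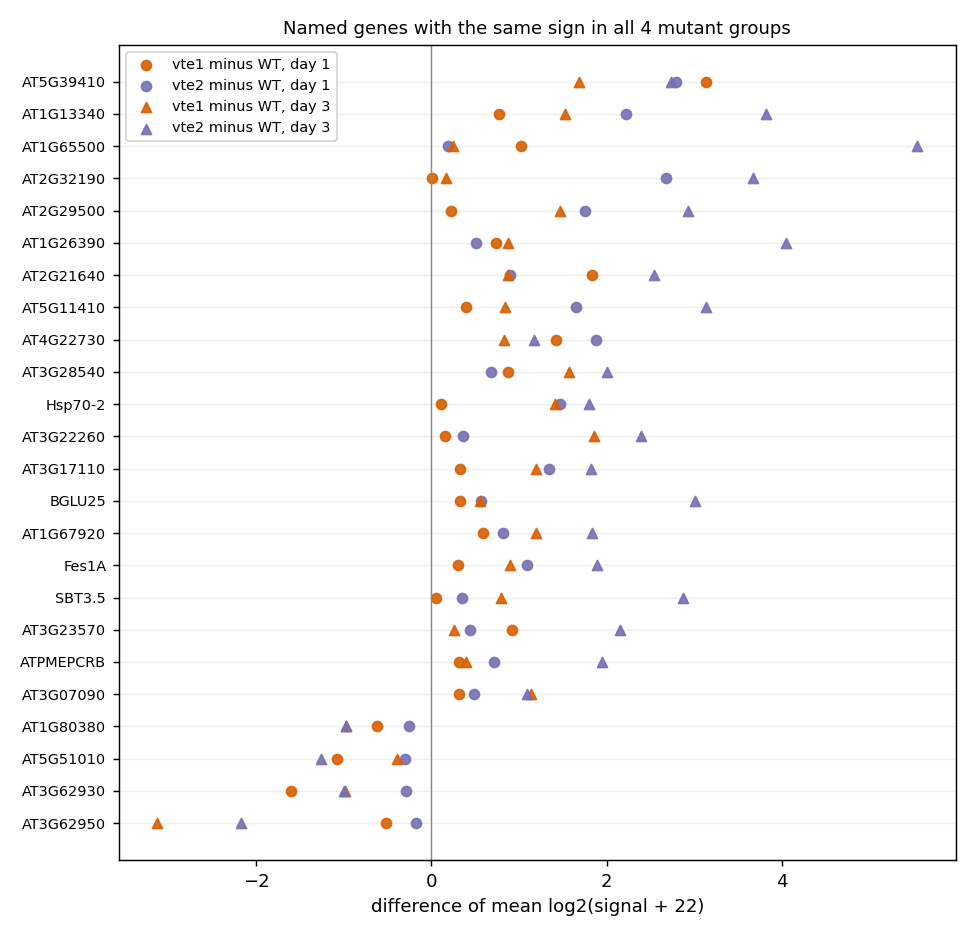
Difference from WT (horizontal, mean log2(signal + 22)) in vte1 and vte2 at day 1 and day 3, for the 24 named genes called with a mean per genotype and day and of the same sign in all 4 mutant groups. 20 genes lie right of 0 and 4 left of it, and the triangles of vte2 at day 3 are the farthest points for most genes.

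The 4 lower genes of that kind included 2 glutaredoxins of the CC type, a land plant class of small thiol proteins that act with TGA transcription factors, and the genes AT1G80380 and AT5G51010. AT3G62930 had 33.1, 57.4 and 110.9 in vte1, with 180.6, 176 and 199.3 in vte2 at day 1, against 241.2, 254.3 and 201.4 in WT. At day 3 it had 181.3, 140.9 and 139.7 in vte1 and 184.4, 168.3 and 112.8 in vte2, against 323.9, 423.2 and 251.6 in WT. No mutant array reached the lowest WT array of its day, although vte2 replicate 3 of day 1 came within a few units of it. The pooled difference was -0.97 ± 0.25 (adjusted p = 0.421, within-group adjusted p = 0.0269). The second-fit call held in 15 of 28 settings, with an adjusted p of 1 without replicate 2 of all groups.

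AT3G62950, which lies close to AT3G62930 in locus number, had 103, 78.6 and 155.8 in vte1, with 229.6, 336.9 and 160.8 in vte2 at day 3, against 1515.8, 1479.5 and 633.2 in WT. Every mutant array of day 3 was well below every WT array. At day 1 the gene was dim everywhere, with 0.9 to 23.6 in the mutants and 1.4 to 24.6 in WT. The pooled difference was -1.50 ± 0.37 (adjusted p = 0.381, within-group adjusted p = 0.00682). AT1G80380, the glycerate kinase of photorespiration, averaged 4021 ± 1045 in the mutants and 7784 ± 1343 in WT at day 3, and 441 ± 89.0 in the mutants and 603 ± 112 in WT at day 1 (-0.71 ± 0.16, within-group adjusted p = 0.0488). Its call held in 10 of 28 settings, with an adjusted p of 0.983 without replicate 2 of all groups. AT5G51010, of a rubredoxin-like family, averaged 512 ± 167 in the mutants and 801 ± 69.0 in WT at day 1 (-0.76 ± 0.20, within-group adjusted p = 0.0186, called in 20 of 28 settings). Its signal at day 3 was 3107.6, 3031.9 and 4843.1 in vte1 and 2048.7, 2018.6 and 1820 in vte2, against 4764.8, 5609.2 and 3918.6 in WT. There vte1 replicate 3 fell among the WT values.

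The CC-type glutaredoxin family was then listed as a whole, a list added after those values were seen. Of 21 loci, 17 were measured, and 14 had a pooled difference below 0 and 3 above, with a median of -0.61, against 0.002 over all probe sets. The median was -1.13 in vte1 and -0.15 in vte2. In all 4 mutant groups alike, 6 of the 17 were lower and 2 higher (AT4G33040 and GRX480), against 9.47% lower and 9.61% higher among all probe sets. In the second fit 2 members were called lower, AT3G62930 and AT3G62950, where 0.0659% of all probe sets were. These are the genes that prompted the list, and they were picked for the same sign in all 4 mutant groups. They are counted in the signs and the median above, so the comparison with all probe sets is partly fixed by that choice. Their calls say nothing further about the family. No member was called in the fit with class and day. AT4G15660 was among the 3 probe sets called lower in vte1 against WT (-1.51 ± 0.26), with 18.3, 30.5 and 84.1 in vte1 at day 1, against 114.1, 153.4 and 163.9 in WT. In vte2 its difference was -0.48, and the mutants' difference missed the threshold (adjusted p = 0.0513). AT5G18600 and AT4G15700 did differ between the mutants (adjusted p of 0.029 and 0.00923), at -1.13 (vte1) and -0.15 (vte2) for AT5G18600 and at -1.73 (vte1) and -0.06 (vte2) for AT4G15700. The loci from AT4G15660 to AT4G15700 are near-identical neighbours, so probes may share their signal and their values are uncertain. They may therefore not count as separate genes in the numbers above.

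**Figure D4:**
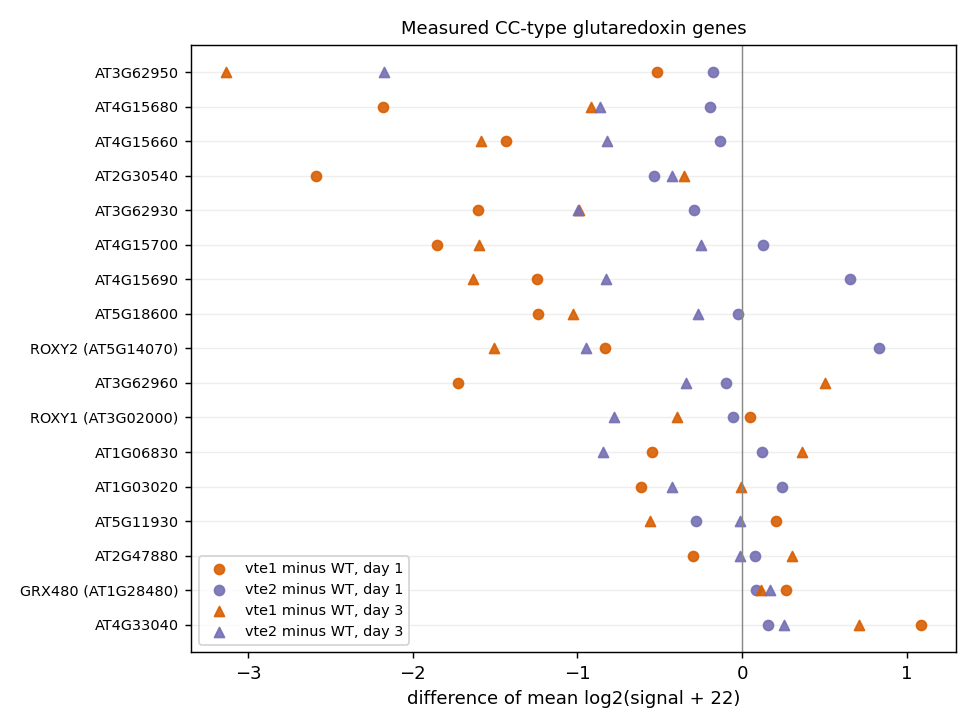
Difference from WT (horizontal, mean log2(signal + 22)) of the 17 measured CC-type glutaredoxin genes in vte1 and vte2 at day 1 and day 3. Most points lie left of 0, with vte1 points farther left than vte2 points for most genes, and AT3G62950 at day 3 farthest of all.

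Whether the pooled difference changed with age was asked by its change between the days. No probe set of 22746 was called in limma (0%), and 986 (4.33%) had p under 0.05 without adjustment. Taken at a single day, 1 probe set was called at day 1 (0.0044%), AT5G39410, and 3 at day 3 (0.0132%), 1 higher and 2 lower (0.00879%). At an unadjusted p under 0.05 limma had 499 probe sets at day 1 (2.19%) and 1974 at day 3 (8.68%). At day 3 AT3G22260 was higher by 2.13 ± 0.30 (adjusted p = 0.0113), with 113.9, 66.6 and 112.2 in vte1 and 160, 126.4 and 161.5 in vte2, against 7.2, 8.8 and 15.9 in WT. At day 1 the mutants had 46.5 to 129.5 and WT had 56.9, 65.1 and 77.1, so that only WT of day 3 stood apart. AT3G62950 (-2.65 ± 0.39, adjusted p = 0.0121) and AT5G28470 (-1.80 ± 0.29, adjusted p = 0.0243) were lower. AT5G28470, of the family of nitrate and peptide transporters, had 5.5, 5.8 and 5.5 in vte1, with 5.5, 1.5 and 1.5 in vte2 at day 3, against 90.7, 92.2 and 36.5 in WT. The mutants had 6.9 to 38.9 and WT 4.2 to 10 at day 1, so the gene was dim except in WT of day 3. It had the smallest p for a change between days, -2.25 ± 0.40 (adjusted p = 0.379), followed among named genes by AT2G07190, AT3G42400, AT1G26900 and AT3G22260. Of these AT3G42400 was dim too, with a mean signal of 15.7 over all arrays. With vte1 replicate 3 of day 1 left out, 1 probe set passed.

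The mutants were then compared with each other, 6 arrays of each. Between vte2 and vte1, over both days, 284 probe sets were called (1.25%), 228 higher (1%) and 56 lower (0.246%) in vte2. That count was 186 without vte1 replicate 2 of day 1, 181 without vte2 replicate 1 and 174 without vte2 replicate 2 of day 3, and 22, 19 and 426 without replicate 1, 2 or 3 of all groups. Against the shared WT arrays, 130 were called in vte2 (0.572%), 122 higher (0.536%) and 8 lower (0.0352%). In vte1 4 were called (0.0176%), with AT5G39410 higher and AT4G15660 and 2 probe sets without a gene name lower. Without adjustment 1799 had p under 0.05 in vte2 (7.91%) and 1735 in vte1 (7.63%). The mutants' difference was called for 27 of the 69 probe sets of the second fit. The named genes with the smallest p between the mutants were PDF1.4, AT2G32190, AT5G10695, AT5G22580, AT1G19020 and AT2G31945. AT5G22580, AT1G19020 and AT2G31945 had opposite signs, with -0.76, -0.64 and -1.08 in vte1 and 1.69, 1.52 and 0.59 in vte2, so that pooling left 0.47, 0.44 and -0.25.

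Of 15 listed genes of tocopherol and related prenylquinone synthesis, 3 were measured, and none was called. Geranylgeranyl reductase (AT1G74470), which makes the phytyl tail precursor used by VTE2, had 1178.4, 1347.7 and 5117.5 in vte1, with 8937, 6545.3 and 8723.4 in vte2 at day 1, against 7971.7, 7297.8 and 9261.5 in WT. The vte1 arrays were all below WT there, while vte2 overlapped WT. At day 3 it had 17282.4 to 23835.1 in vte1 and 12566 to 15501.6 in vte2, against 18344.3 to 21210.3 in WT. Its pooled difference was -0.64 ± 0.35 (adjusted p = 0.868). NDC1, an NAD(P)H quinone dehydrogenase of plastoglobules, had -0.21 (adjusted p = 0.957). AT1G78620, the phytyl phosphate kinase VTE6 that recycles phytol, had 0.01 (adjusted p = 0.998), and its sign changed with the scaling and with single arrays left out.

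In the other lists, no member was called in the fit with class and day. Electrophile detoxification had 5 of 6 measured genes above 0 and a median of 0.62, which was 0.02 in vte1 and 1.17 in vte2. Within it UPOX was the member called in the second fit, and the glutathione transferase gene GSTU25 had 0.74 and the transporter gene AT1G71140 0.89 without a call. AER, an alkenal reductase that removes reactive carbonyls, had -0.67 in vte1 and 0.57 in vte2 (adjusted p of the difference 0.0103). Defence genes had 7 of 11 above 0 and a median of 0.42, with -0.14 in vte1 and 0.63 in vte2. The heat shock list had 2 measured members, AT2G29500 and ATHSP22.0, and ATHSP22.0 had 0.28. Among antioxidant enzymes, 2 of 7 lay above 0 (median -0.15), with glutathione reductases at 0.33 (GR1) and -0.15 (GR) and the thylakoid ascorbate peroxidase TAPX at -0.25.

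Photosynthesis genes lay mostly below 0, with 11 of 12 lower and a median of -0.45, -0.67 in vte1 and -0.21 in vte2. The median in vte2 at day 1 was 0.32, and 1 of 12 (8.33%) was lower in all 4 mutant groups, against 9.47% of all probe sets. After quantile normalization the median was -0.24, again with 11 of 12 below 0. PSAE-1, a photosystem I subunit, had -0.63 and the Calvin cycle enzyme PRK -0.56, without a call. PSAN, PSAE-1 and RCA are also the cotyledon markers whose sums are given above. LEA, oleosin and seed storage genes had 11 of 13 above 0 and a median of 0.35, but 1.85 in vte1 at day 1 and -0.36 in vte2 over both days. LEA4-5, the dry-seed marker given above, is one of them, with 0.60 over both mutants, 1.57 in vte1 and -0.36 in vte2. Without replicate 3 of all groups the median of the list was -0.11, with 5 of 13 above 0. Of all probe sets, 50.4% lay above 0. Among the larger families this held for 31 of 50 UDP-glycosyltransferases (62%, median 0.07), 15 of 26 cytochrome P450s (57.7%, median 0.04) and 16 of 28 expansins and xyloglucan endotransglucosylases (57.1%, median 0.07). It held for 10 of 13 glutathione transferases (76.9%), whose median of 0.08 was 0.20 with a pseudocount of 1, 0.15 after quantile normalization, 0.04 after median centring and 0.22 without replicate 3 of all groups. Class III peroxidases had 4 of 6 above 0 (median 0.39). Seed oil breakdown had 1 of 3 above 0 (median -0.08), and the jasmonate list 1 of 2, where JRG21 had 0.90, with -0.07 in vte1 and 1.87 in vte2 (adjusted p of the difference 0.0041).

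**Figure D5:**
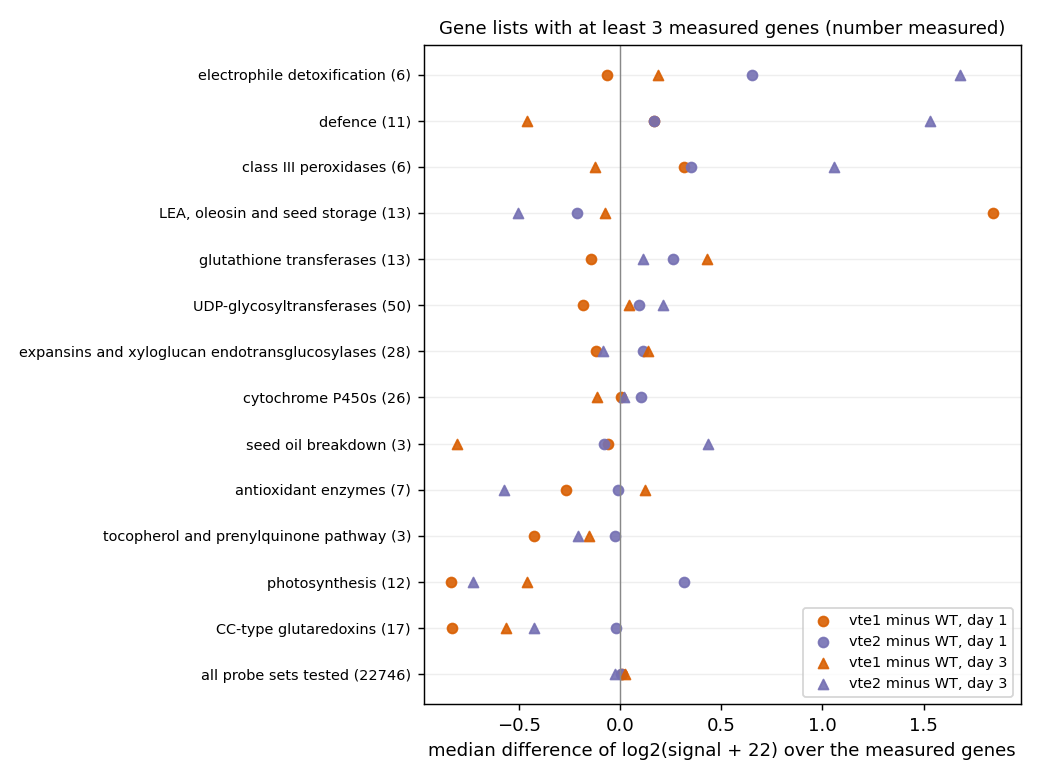
Median difference from WT (horizontal, log2(signal + 22)) of each gene list with at least 3 measured genes, in vte1 and vte2 at day 1 and day 3, with the number measured in brackets. The LEA, oleosin and seed storage list lies at 1.85 in vte1 at day 1, and the electrophile and defence lists are highest in vte2 at day 3. The CC-type glutaredoxins and the tocopherol and prenylquinone list lie below 0 in all 4 mutant groups, in vte2 at day 1 only just (-0.02 and -0.03).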

How the data were processed

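The authors' deposited values are linear intensities, 1 signal per probe set and array, made with MAS5 per the submitters' processing notes. Its version, target and filters are not stated there. Trimmed of 2% at each end, the mean signal was 499.8 to 501.2 on all 18 arrays, so the arrays share a scale whose exact target stays unknown, while array medians differ. Values are not centred by gene, and the number of arrays limits the precision.

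Of 22810 probe sets, 64 are controls and were set aside, and the other 22746 were tested without a filter. The added constant, 22 signal units, is about the 20th percentile of all signals. Genes were named through GEO's annotation of the platform for the 13513 probe sets with a single gene; 503 with several genes and 8730 with none stayed unnamed. Of the named, 13436 matched a locus of the RefSeq table of TAIR10.1, used for names and neighbours only. Promoter motifs were not searched, and no sequence is printed.

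limma 3.58.1 (R 4.3.3; lmFit, then eBayes with trend) was fitted with class and day on all 18 arrays (15 residual degrees of freedom), and as an alternative with a mean per genotype and day (12). Single days, the change between days and the mutants apart used the same values. The package data.table (version 1.17.8), Python 3.11.15 and matplotlib 3.10.9 read and plotted values. P-values are two-sided and adjusted by the Benjamini-Hochberg method over all probe sets of a comparison, and an adjusted p under 0.05 is called. The 12 mutant arrays come from 2 genotypes and are not replicates of 1 condition, and p-values measure only the spread between these samples. An SD given for 6 mutant arrays also holds the difference between the genotypes. The rule named, among probe sets with 1 gene, called genes of one sign in all 4 mutant groups or without overlap at both days, called list members, measured tocopherol genes, and the 6 smallest adjusted p between the mutants and between the days. As 1 gene was called, genes of the second fit, those without overlap, called ones of single comparisons, the neighbours and the glutaredoxin list were added after their values were seen. All members and lists were chosen with earlier results of these data known. No probe set of the cytosolic ribosomal protein list was matched. The fits were run on simulated data with independent noise and equal shifts in both mutants, a setting that these data do not share. Nothing is read from that run about the counts above.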

Additional observations from a re-analysis of the deposited data

Results flagged for a closer look

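Within the 6 mutant arrays of a day, 6 of 114 sets of values tested had an array far from the others, and chance flags about 1 set in 20. Replicate 3 of vte2 at day 1 was the highest for AT3G62950 (23.6, next 3), Fes1A (1651.6, next 692) and BGLU25 (4464.8, next 2152.2). Replicate 1 of vte2 at day 1 was the lowest for AT1G26390 (1, next 15.3), and replicate 3 of vte2 at day 3 the lowest for AT1G06830 (27.6, next 273.9). Replicate 3 of vte1 at day 3 was the lowest for Hsp70-2 (381.2, next 853.3).

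The difference from WT was not the same in both mutants for 14 of 57 genes taken from the fits, the groups without overlap, the tocopherol list and the glutaredoxin list, by limma's test of vte2 minus vte1 over both days. It was 4.90 for PDF1.4, 3.09 for AT2G32190, 2.82 for AT1G56060, 2.45 for AT5G22580, 2.15 for AT1G19020, 2.07 for AT5G10695 and 1.99 for PRN. It was 1.88 for AT1G13340, 1.78 for AT5G11410, 1.67 for AT2G31945, 1.66 for AT4G15700, 1.5 for AT2G29500, 0.99 for AT5G18600 and 0.98 for ATPMEPCRB. The adjusted p ran from 1.07e-05 for PDF1.4 to 0.0426 for ATPMEPCRB. The share among all probe sets was 1.25%, and 6 of the 14 were named for this difference. The others entered through the second fit, which can pass a gene that moved in 1 mutant, or through the glutaredoxin list added later. Nothing is therefore read from the 14 of 57 against that share.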

How the results depend on the processing

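The call of AT5G39410 held in the fit with class and day under every scaling, pseudocount, filter and trend tried and with each of the 18 arrays left out, with a difference between 2.06 (pseudocount 64) and 3.21 (pseudocount 1). It was lost without replicate 2 or replicate 3 of all groups, and these settings gave 1, 0 and 0 calls without replicates 1, 2 and 3. At an unadjusted p under 0.05 limma had 795, 768 and 1780 probe sets there. A mean per genotype and day raised the count to 69, and the same fit with a replicate block to 91. With the replicate block in the other fits, 1 probe set was called in the pooled comparison, 0 for the change between days and 351 between the mutants. The deviations of same-numbered arrays from their group means correlated above 0.1 in 9 of 9 pairs at day 1 (0.17 to 0.46) and in 2 of 9 at day 3 (-0.01 to 0.26), and 7 of 9 and 9 of 9 arrays correlated best with an array of their own number. The numbers thus hint at a shared source, which the labels do not give, and the criterion was met at day 1 but not over both days. With the block, the 1 probe set called in the fit with class and day was again AT5G39410 (limma adjusted p = 0.00143).

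In the fit with a mean per genotype and day, settings added after seeing the data gave 44 calls with pseudocount 1, 80 with 64, 70 above the 30th percentile of mean signal, 70 after quantile normalization, 67 after median centring and 48 without the trend. Leaving out 1 array gave 34 to 250 calls, and leaving out a replicate number of all groups 0 to 1065 (429 higher and 636 lower without replicate 3). Between vte2 and vte1 the same steps gave 174 to 369 and 19 to 426 calls, against 284. For the change between days, 0 to 1 probe sets passed. AT1G78620, near 0, changed sign to -0.023 after quantile normalization and -0.018 after median centring, and to between -0.126 and -0.005 in 9 settings that left out arrays. Over all such settings it ran from -0.126 to 0.123, with no call. The causes were not tested. Few arrays per group limit all counts, and signals below about 22 units carry little information on size.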
